A study of Rattus norvegicus with 15 samples.

Results

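Ccl2, Il6, Cxcl1 and Vegfa, 4 genes for proteins that fibroblasts secrete, were followed through 5 stable lines of Rat1a, an immortalized rat fibroblast line. They were taken by Ensembl identifier from the 32545 genes listed in every count table, as ENSRNOG00000007159 (Ccl2), ENSRNOG00000010278 (Il6), ENSRNOG00000002802 (Cxcl1) and ENSRNOG00000019598 (Vegfa). All 4 were listed, and all 4 were among the 13676 genes that passed the filter on low counts. The names came with the choice of the genes and could not be checked, because the count tables give identifiers alone and the RefSeq table of rat genes used here held 0 Ensembl identifiers. The lines R149, R158 and R323 carried mouse MYC in which arginine took the place of a lysine (K149R, K158R and K323R), WT carried unmutated mouse MYC, and EV the empty vector. Each line had 3 libraries of stranded mRNA, which the labels call biological replicates, from adherent cultures in medium with serum. Each construct was 1 stable line, so effects of the construct and of the line itself cannot be told apart, and p-values measure the spread between cultures only. The cell type was taken from the labels and was not checked against marker genes, because other identifiers could not be named.

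CCL2 and CXCL1 are chemokines. CCL2 binds the receptor CCR2 and draws monocytes, and CXCL1 binds CXCR2 and draws neutrophils. IL-6 is a cytokine that signals through its receptor and the shared subunit gp130 to STAT3. Fibroblasts make all of them in response to inflammatory signals, to a large part through the transcription factor NF-κB. VEGFA is the main growth factor for blood vessels, acts on the receptors VEGFR1 and VEGFR2 of endothelial cells, and is raised by hypoxia through HIF-1. MYC binds DNA with its partner MAX, most strongly at the E-box CACGTG, and lysine acetylation is among the modifications that MYC carries. The comparisons with EV asked how the RNA of these secreted factors differed in cells with added MYC, and those with WT whether a substituted lysine changed that.

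Of the 4 genes, 3 were matched by symbol to RefSeq promoter windows (build GRCr8, which is not the build named for the counts), Il6, Cxcl1 and Vegfa, the last with the upstream of its 2 windows. The 250 bases before the annotated start are shown because these windows can be searched for the MYC E-box and for the NF-κB motif of the inflammatory genes. Capitals mark matches to the NF-κB consensus or to GGGCGG, the core of the GC box bound by SP1, on either strand. Both motifs were picked after the sequences were seen.
Il6, chr4:5894576-5894825 (minus strand): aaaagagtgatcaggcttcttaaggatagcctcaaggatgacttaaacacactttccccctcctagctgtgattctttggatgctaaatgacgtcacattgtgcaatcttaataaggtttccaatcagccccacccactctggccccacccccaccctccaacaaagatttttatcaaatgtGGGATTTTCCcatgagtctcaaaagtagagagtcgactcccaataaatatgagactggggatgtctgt
Cxcl1, chr14:17479322-17479571 (minus strand): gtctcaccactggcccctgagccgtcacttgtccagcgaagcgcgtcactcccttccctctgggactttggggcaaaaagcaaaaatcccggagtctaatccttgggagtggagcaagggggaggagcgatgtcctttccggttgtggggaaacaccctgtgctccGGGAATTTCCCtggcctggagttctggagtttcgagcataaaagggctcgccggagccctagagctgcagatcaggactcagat
Vegfa, chr9:22452604-22452853 (plus strand): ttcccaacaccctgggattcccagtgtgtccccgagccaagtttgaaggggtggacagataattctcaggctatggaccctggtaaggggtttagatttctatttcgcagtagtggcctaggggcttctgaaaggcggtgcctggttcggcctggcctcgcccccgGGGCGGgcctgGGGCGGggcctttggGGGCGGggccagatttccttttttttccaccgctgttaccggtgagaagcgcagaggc
None of the 3 windows held CACGTG, which occurred in 5.59% of 33469 RefSeq rat promoter windows of the same length. The NF-κB consensus occurred at 1 place in the Il6 window, as GGGATTTTCC with its first base at position -68 from the start. In the Cxcl1 window it matched GGGAATTTCC at -84 and, overlapping it, the opposite strand from -83. Of all windows, 3.54% held this motif. The Vegfa window held GGGCGG at 3 places, beside 30.5% of all windows with at least 1 match. A match of letters is a description and does not show that a factor bound there, and no match says nothing about sites elsewhere.

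Library totals ranged from 13303631 counts in R158 replicate 1 to 108933235 in R149 replicate 3. When every library was thinned to the smallest total, 13686 genes were detected in R149 replicate 1, against 14835 to 15675 in the other 14 libraries. Replicate 1 had the fewest genes in the other lines too, with 15382 in EV, 14835 in WT, 15056 in R158 and 15060 in R323. Ccl2 had between 144 and 1181 counts per library and Vegfa between 473 and 3564, so both could be read in every line. Cxcl1 had between 14 and 186 counts. Il6 had between 0 and 43 counts, and 7 of the 15 libraries held at least 10. Of the lines, EV was the only line in which all 3 libraries had at least 10 Il6 counts, so Il6 was too low to read in all 6 comparisons among the MYC lines, and it was readable only in the 4 comparisons with EV. Levels are given in CPM, which sets all libraries to the same total and here also corrects for their composition (TMM), and they are compared between lines for 1 gene, never between genes.

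**Figure D1:**
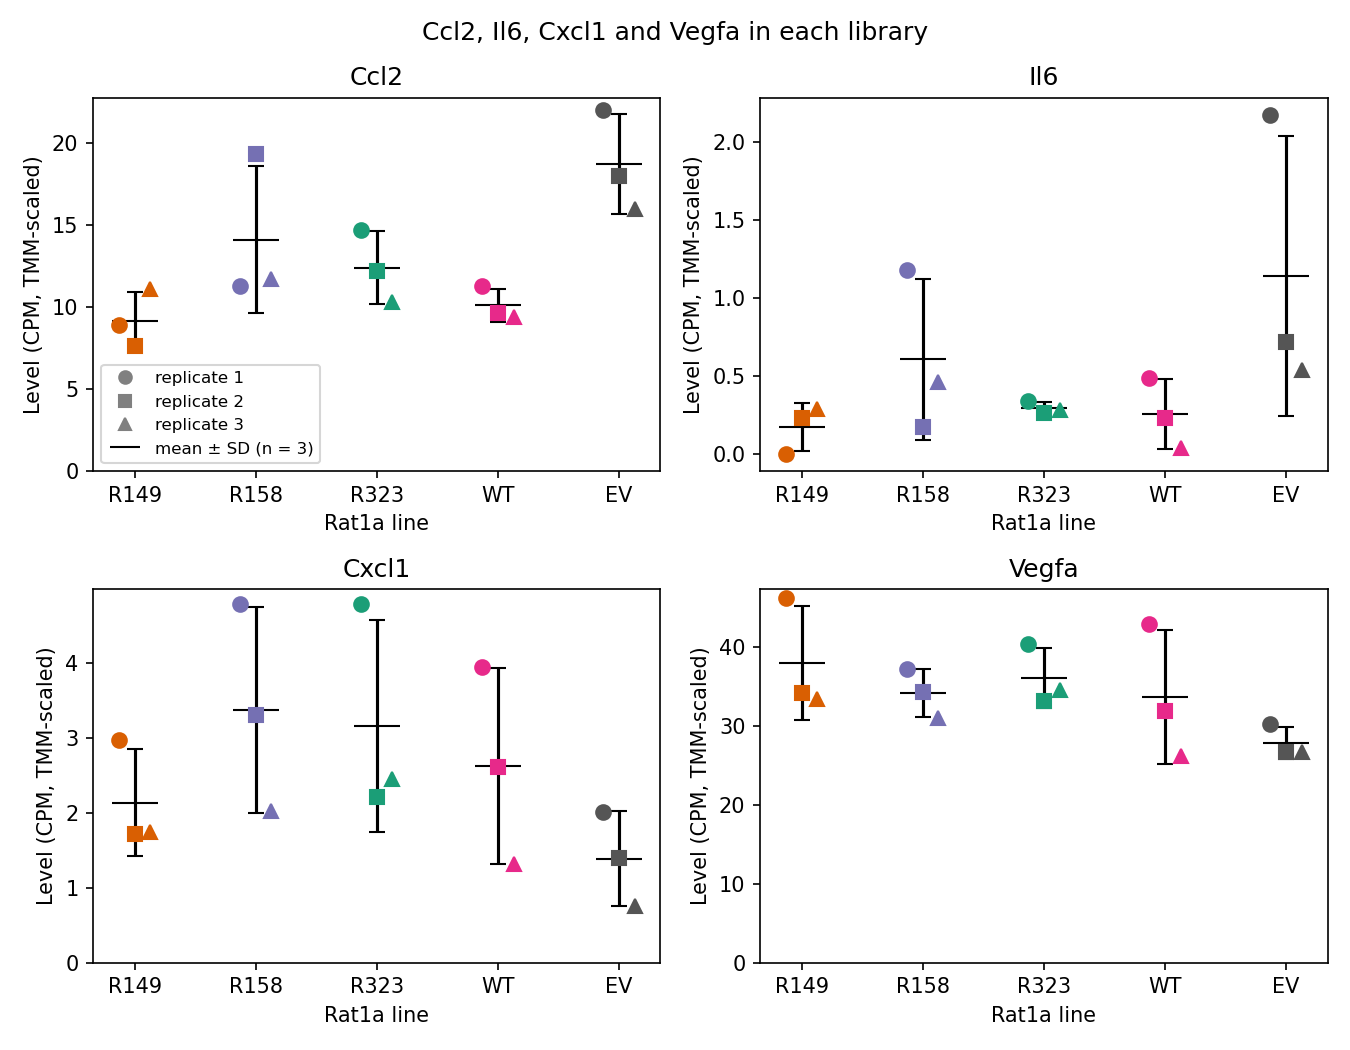
Levels of Ccl2, Il6, Cxcl1 and Vegfa in CPM (vertical axes from 0 or just below it, 1 panel per gene) in each library of R149, R158, R323, WT and EV (horizontal axes). Points are libraries, shaped by replicate number, with the mean and SD of 3. The 9 Ccl2 points of R149, R323 and WT lie between 7.61 and 14.7 CPM, below the EV points at 16 to 22 CPM.

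Ccl2 fell in R149, R323 and WT relative to EV, and its difference between R158 and EV did not pass the test. The R149 libraries, in order of replicate number, had 8.88, 7.61 and 11.1 CPM. The R158 libraries had 11.3, 19.3 and 11.7 CPM. The R323 libraries had 14.7, 12.2 and 10.3 CPM. The WT libraries had 11.3, 9.66 and 9.42 CPM, and the EV libraries 22, 18 and 16 CPM. Every R149, R323 and WT library lay below every EV library, while R158 replicate 2 lay among the EV libraries and the other R158 libraries below them. The mean was 9.18 ± 1.74 CPM in R149, 14.1 ± 4.47 in R158, 12.4 ± 2.22 in R323, 10.1 ± 1.02 in WT and 18.7 ± 3.06 in EV (SD, n = 3 each). Against EV the log2 fold change was -1.02 ± 0.21 (SE) in R149, with an edgeR adjusted p of 0.00157. It was -0.88 ± 0.21 in WT, with an edgeR adjusted p of 0.00674, and -0.59 ± 0.21 in R323, with an edgeR adjusted p of 0.0459. As fractions of the EV level these were 0.494, 0.544 and 0.664. In R158 it was -0.39 ± 0.21, a 95% interval of -0.84 to 0.06, with an edgeR adjusted p of 0.18. In bulk RNA, fewer cells that express a gene and less RNA per cell cannot be told apart.

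The fall of Ccl2 in R149 and in WT passed the test in all 22 alternatives tried for each, with adjusted p of at most 0.00847 for R149 and 0.0285 for WT. The fall in R323 lay close to the threshold. It was lost without EV replicate 1 (log2 fold change -0.46, adjusted p = 0.158), EV replicate 2 (0.0866), R323 replicate 3 (0.158) or R323 replicate 2 (0.107), and narrowly without WT replicate 3 (0.0533) or WT replicate 2 (0.0531). The R158 result turned on 1 library, since without R158 replicate 2 Ccl2 was lower in R158 than in EV by a log2 fold change of -0.69 with an adjusted p of 0.028. From the lowest mean to the highest, the lines ran R149, WT, R323, R158 and EV, and no pair of neighbours in this order differed by the test, with edgeR adjusted p between 0.18 and 0.927.

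Cxcl1, the other chemokine, had higher mean levels in all 4 MYC lines than in EV. No difference passed in the reported edgeR fit, which had the line as its only term. Some passed in the alternatives given below, and all 4 passed with the replicate number as a second term. The R149 libraries had 2.97, 1.72 and 1.74 CPM, and the R158 libraries 4.79, 3.31 and 2.03 CPM. The R323 libraries had 4.79, 2.21 and 2.46 CPM, and the WT libraries 3.95, 2.62 and 1.32 CPM. The EV libraries had 2.02, 1.4 and 0.751 CPM. The R158 and R323 libraries all lay above the EV libraries, R158 replicate 3 by the small step between 2.03 and 2.02 CPM, and the ranges of R149 and of WT overlapped that of EV. The mean was 2.14 ± 0.714 CPM in R149, 3.38 ± 1.38 in R158, 3.16 ± 1.42 in R323, 2.63 ± 1.31 in WT and 1.39 ± 0.634 in EV (SD, n = 3 each). Against EV the log2 fold change was 1.26 ± 0.46 (SE) in R158, with an edgeR adjusted p of 0.0532. It was 1.16 ± 0.46 in R323, with an edgeR adjusted p of 0.0702, and 0.93 ± 0.46 in WT, with an edgeR adjusted p of 0.146. In R149 it was 0.61 ± 0.45, with an edgeR adjusted p of 0.306.

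The 95% intervals of these log2 fold changes were wide, from 0.27 to 2.25 in R158, from 0.18 to 2.14 in R323, from -0.04 to 1.9 in WT and from -0.36 to 1.57 in R149. The R158 difference passed in 11 of 22 alternatives, among them DESeq2 with an adjusted p of 0.0244, over a range of adjusted p from 0.00147 to 0.191. It passed without EV replicate 1 (adjusted p = 0.0437), WT replicate 1 (0.0423), WT replicate 3 (0.0409), R149 replicate 1 (0.044), R158 replicate 3 (0.0346) or R323 replicate 1 (0.0431). The R323 difference passed in 3 of 22, over a range from 0.00222 to 0.277. From the highest mean to the lowest, the lines ran R158, R323, WT, R149 and EV, and no neighbours in this order differed by the test, with edgeR adjusted p between 0.306 and 0.996. Cxcl2, a closely related chemokine gene, is the RefSeq neighbour of Cxcl1, and Ccl7 that of Ccl2. How the counting treated reads shared between such related genes is not given in the sources used here, so both chemokine counts carry that uncertainty.

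Il6 had few counts in every line, and its level was lower in R149 than in EV by the test. The R149 libraries held 0, 10 and 31 counts, the R158 libraries 15, 5 and 8, the R323 libraries 6, 9 and 6, the WT libraries 18, 8 and 1, and the EV libraries 43, 33 and 10. The 0 of R149 replicate 1 allows a level of up to 0.0849 CPM, the value of 3 counts in that library, by counting error alone. As levels, R149 had 0, 0.23 and 0.29 CPM, R158 had 1.18, 0.176 and 0.465, and R323 had 0.338, 0.262 and 0.284. WT had 0.49, 0.235 and 0.0426 CPM, and EV had 2.17, 0.721 and 0.537 CPM. All R149, R323 and WT libraries lay below all EV libraries, and R158 replicate 1 lay among the EV libraries. EV replicate 1 stood well above every other library.

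The mean of Il6 was 0.173 ± 0.153 CPM in R149, 0.607 ± 0.516 in R158, 0.295 ± 0.0391 in R323, 0.256 ± 0.224 in WT and 1.14 ± 0.895 in EV (SD, n = 3 each). Only the R149 difference from EV passed the test, where Il6 had a log2 fold change of -2.52 and a standard error of 0.80, at an edgeR adjusted p of 0.0222. Without EV replicate 1 it was -1.73 with an adjusted p of 0.133, and without R149 replicate 1 it was -2.06 with an adjusted p of 0.0359. With replicates 2 and 3 only it was -1.29 and still passed, with an adjusted p of 0.0228. For WT the log2 fold change was -2.03 ± 0.82, with an edgeR adjusted p of 0.0813, and for R323 it was -1.93 ± 0.85, with an edgeR adjusted p of 0.0996. Without R149 replicate 1, whose spread enters the shared estimate, these passed at 0.0357 for WT and 0.0474 for R323. For R158 it was -1.02 ± 0.82, with an edgeR adjusted p of 0.372 and a 95% interval of -2.77 to 0.73.

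Vegfa stood higher in R149 than in EV at the edge of the threshold, and no other difference of Vegfa passed. The R149 libraries had 46.2, 34.1 and 33.4 CPM, those of R158 had 37.2, 34.2 and 31 CPM, and those of R323 had 40.3, 33.1 and 34.5 CPM. The WT libraries had 42.9, 31.9 and 26.2 CPM, and the EV libraries 30.2, 26.7 and 26.6. The R149, R158 and R323 libraries all lay above the EV libraries, and WT spanned the EV range. The mean was 37.9 ± 7.22 CPM in R149, 34.1 ± 3.06 in R158, 36 ± 3.82 in R323, 33.6 ± 8.5 in WT and 27.8 ± 2.03 in EV (SD, n = 3 each). Vegfa rose in R149 relative to EV, on the log2 scale by 0.44 ± 0.17 (SE), at an edgeR adjusted p of 0.0471.

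This rise of Vegfa, 1.36-fold, lay at the threshold, and its adjusted p was above 0.05 in 14 of 22 alternatives. It passed in 8, among them DESeq2 (adjusted p 0.0439) and the edgeR fit of only the 2 lines compared (adjusted p 0.0391). With replicates 2 and 3 only, the log2 fold change was 0.33, with an edgeR adjusted p of 0.0239. With the replicate number as a second term, for which pairing with EV was not shown, the edgeR adjusted p was 0.0034. Without R149 replicate 1 the log2 fold change was 0.26 with an adjusted p of 0.238, and in the other alternatives without a call it was 0.38 to 0.50. The call was also lost without each EV, R158 or R323 library in turn, WT replicate 2 or R149 replicate 2, with adjusted p between 0.0505 (R323 replicate 1) and 0.139 (EV replicate 3), and it was kept without R149 replicate 3 (0.0406). The other fold changes against EV were 0.37 ± 0.17 in R323 (edgeR adjusted p 0.112), 0.29 ± 0.17 in R158 (0.208) and 0.28 ± 0.17 in WT (0.244), on the log2 scale. The upper ends of their 95% intervals were 0.73, 0.65 and 0.63. From the highest mean to the lowest, the lines ran R149, R323, R158, WT and EV, and no neighbours in this order differed by the test, with edgeR adjusted p between 0.244 and 0.983.

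**Figure D2:**
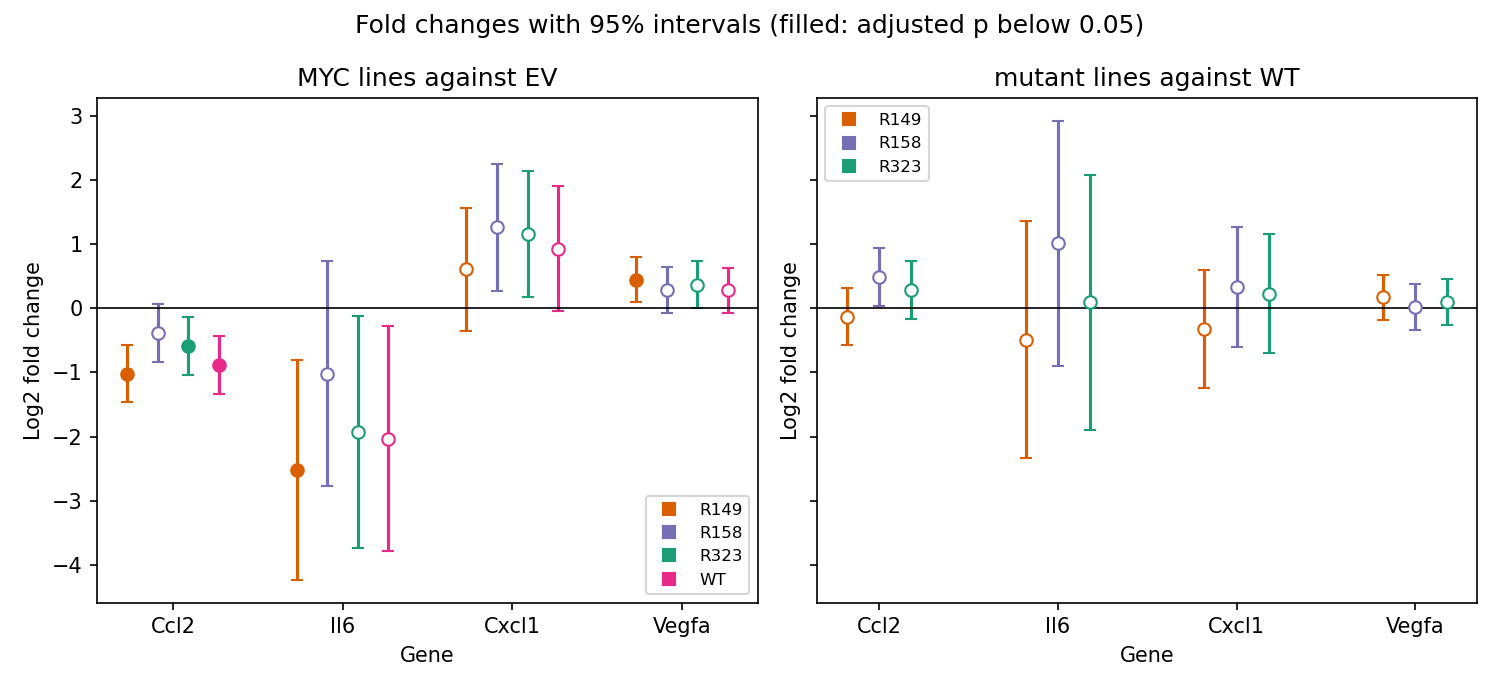
Log2 fold changes (vertical axis) of the 4 genes (horizontal axis) in R149, R158, R323 and WT against EV on the left, and in the mutant lines against WT on the right. Points are edgeR estimates, bars their 95% intervals, and filled points have an adjusted p below 0.05. Ccl2 and Il6 lie below 0 and Cxcl1 and Vegfa above 0 in all 4 lines against EV, and no point on the right is filled.

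The calls of the 4 genes were set beside those of all genes tested. In R149 against EV, 3 of the 4 genes were called (Ccl2 and Il6 lower, Vegfa higher), where 38.5% of all 13676 genes were called. In R323 against EV, 1 was called with edgeR, Ccl2, and 29.8% of all genes, while all 4 genes had an unadjusted p under 0.05 and libraries that did not overlap with EV, and DESeq2 called 2, Ccl2 and Cxcl1. In WT against EV, 1 was called, again Ccl2, with 26.8% of all genes, while 2 had an unadjusted p under 0.05 and DESeq2 called 1. In R158 against EV, 0 of 4 were called with edgeR and 28.5% of all genes, while 1, Cxcl1, had an unadjusted p under 0.05 and was called by DESeq2. In R149 against EV, 3 had an unadjusted p under 0.05 and DESeq2 called 3. Libraries did not overlap with EV for 3 of the 4 genes in R149, 2 in R158 and 2 in WT. In all, 5 of 16 tests against EV were called, which does not set the 4 genes apart from the other genes. All-gene shares are given here for edgeR calls alone. The counts by unadjusted p, by overlap and by DESeq2 have no such share beside them. They therefore cannot set the 4 genes apart either. The direction was the same in each of these comparisons, which share the EV libraries, with Ccl2 and Il6 lower and Cxcl1 and Vegfa higher in the estimates. A test over all 5 lines together passed for Ccl2, with an edgeR adjusted p of 0.00827, and 32% of all genes passed it. The edgeR adjusted p was 0.0952 for Il6, 0.192 for Cxcl1 and 0.257 for Vegfa.

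No difference between a mutant line and WT passed the test for any of the 4 genes. Against WT, 0 of 4 genes were called with edgeR in R149, in R158 or in R323, where 1.18%, 0.6% and 0.892% of all genes were called, and DESeq2 called 0 as well. Of the 12 tests against WT, 1 had an unadjusted p under 0.05. That was Ccl2 in R158, whose libraries all lay above the highest WT library, by less than the rounding in the closest case (11.3, 19.3 and 11.7 CPM in R158, against 11.3, 9.66 and 9.42 CPM in WT). Its log2 difference was 0.49 ± 0.21, a 95% interval of 0.04 to 0.94, with an edgeR adjusted p of 0.412, and without R158 replicate 2 it was 0.19. Ccl2 in R149 differed from WT by -0.14 (interval -0.58 to 0.31) and in R323 by 0.29 (interval -0.16 to 0.74).

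Without the replicate number in the fit, for Vegfa the log2 differences from WT were 0.17 in R149 (interval -0.19 to 0.52), 0.02 in R158 (interval -0.34 to 0.38) and 0.09 in R323 (interval -0.26 to 0.45). For Cxcl1 they were -0.32 in R149 (interval -1.24 to 0.59), 0.33 in R158 (interval -0.6 to 1.27) and 0.23 in R323 (interval -0.7 to 1.15). Equal numbers were taken to pair the libraries of the MYC lines. The fit with the replicate number held all 15 libraries, so it included EV, for which pairing was not shown. In that fit the intervals of Vegfa and Cxcl1 were narrower. For Vegfa they were then -0.04 to 0.40 in R149, -0.18 to 0.26 in R158 and -0.11 to 0.33 in R323. For Cxcl1 they were -0.72 to 0.27 in R149, -0.13 to 0.90 in R158 and -0.24 to 0.78 in R323. The Ccl2 intervals stayed about as wide, at -0.55 to 0.32 in R149, 0.05 to 0.95 in R158 and -0.16 to 0.73 in R323. The edgeR adjusted p of Ccl2 in R158 against WT was 0.244 in that fit. No call against WT changed in that fit. Il6 was too low to read in these comparisons. Between the mutant lines edgeR and DESeq2 each called 0 of 12 tests, beside 1.27% of all genes for R149 against R158, 1.07% for R149 against R323 and 0.936% for R158 against R323. The single unadjusted p under 0.05 was again Ccl2, at 9.18 ± 1.74 CPM in R149 and 14.1 ± 4.47 CPM in R158 (log2 difference -0.63 ± 0.21, edgeR adjusted p 0.263). With the replicate number in the fit this difference had an interval of -1.06 to -0.17 and an edgeR adjusted p of 0.165.

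The spread within lines followed the replicate number in part for Cxcl1 and Vegfa. Replicate 1 was highest, while replicates 2 and 3 had no fixed order. Replicate 1 had the highest Cxcl1 level in 5 of 5 lines, by 0.5 to 0.71 log2 units above the mean of its line. Replicate 3 was below that mean in every line, with deviations of -0.83 to -0.25. Replicate 1 was also the highest for Vegfa in 5 of 5 lines, by 0.12 to 0.38 log2 units. Of all genes tested, 6.63% had replicate 1 highest in every line. Il6 was highest in replicate 1 in 4 of 5 lines, the exception being R149 with its 0 counts, and Ccl2 in 3 of 5. The labels do not say what equal numbers share. Replicate 1 also had the fewest genes detected in each line after thinning, and a link to these levels was not tested. With the replicate number as a second term of the fit, the standard error of the Cxcl1 log2 fold change against EV was 0.25 in each of the 4 MYC lines, and all 4 differences passed, with edgeR adjusted p of 0.0393 in R149, 0.00147 in R158, 0.00222 in R323 and 0.0127 in WT. Equal numbers were not shown to pair the MYC libraries with the EV libraries over all genes, so these values stand beside the reported ones and do not replace them. The biological coefficient of variation of the fit was 14.8% for Vegfa, 18.2% for Ccl2, 36.3% for Cxcl1 and 65.1% for Il6, beside a common value of 16.1% over all genes.

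**Figure D3:**
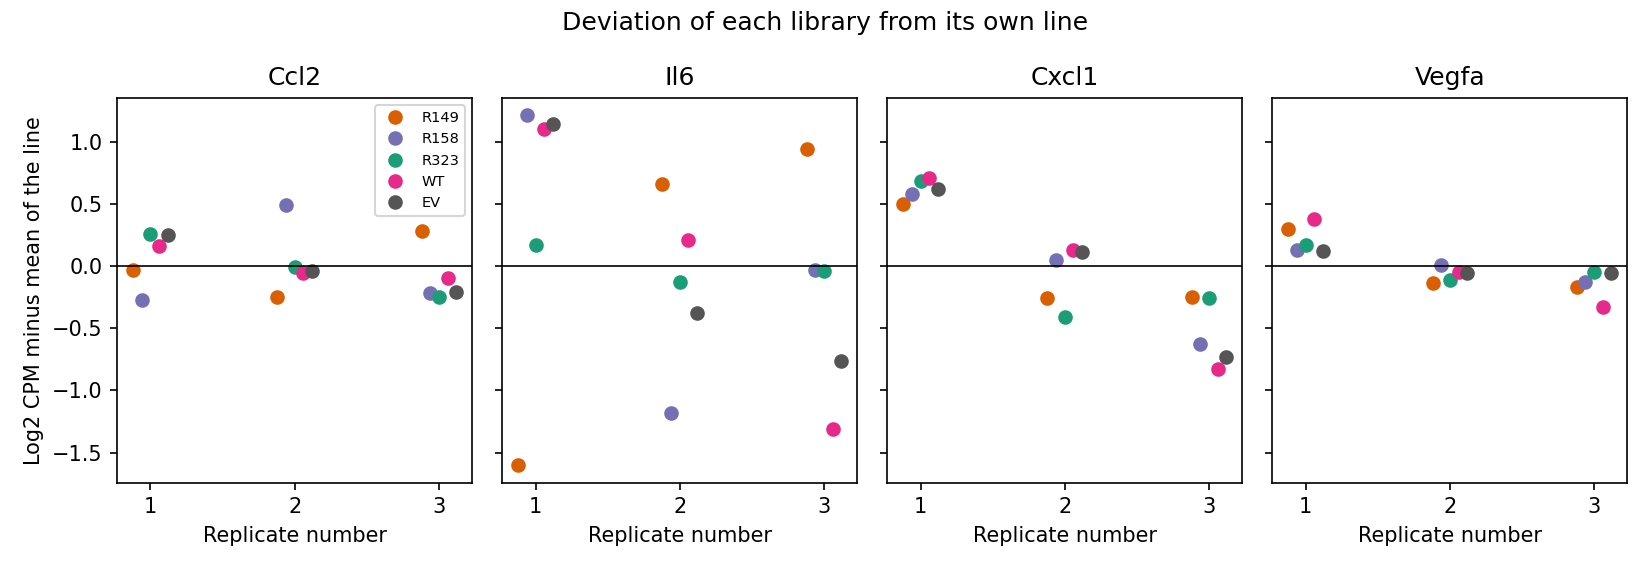
Log2 CPM of each library minus the mean of its own line (vertical axis), by replicate number (horizontal axis) and coloured by line, for the 4 genes. Replicate 1 lies 0.5 to 0.71 above 0 for Cxcl1 in every line and 0.12 to 0.38 above 0 for Vegfa, while Ccl2 shows no such order.

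Among genes with a mean of at least 1 CPM, the gene most like each of the 4 was found by Pearson's correlation of log2 CPM over the 15 libraries, as a description. The libraries share line and replicate number, which both enter such a likeness. For Vegfa it was ENSRNOG00000018698 (r = 0.96), at 101 ± 9.44 CPM in R149, 98.4 ± 8.36 in R158, 101 ± 8.41 in R323, 96.3 ± 13.3 in WT and 83.7 ± 5.99 in EV (SD, n = 3 each). For Cxcl1 it was ENSRNOG00000006241 (r = 0.94), whose mean lay between 61.4 CPM in EV and 69.7 CPM in R158. Within lines, after the line means were removed, these likenesses were 0.95 and 0.92. For Ccl2 it was ENSRNOG00000001223 (r = 0.92, and 0.82 within lines), which stood lower in WT than in EV by a log2 fold change of -0.40 (edgeR adjusted p 0.0064). For Il6 it was ENSRNOG00000003479 (r = 0.90, and 0.87 within lines), at 0.489 ± 0.143 CPM in WT and 2.95 ± 1.14 CPM in EV, and with Il6 counts as low as these the likeness is loose. The files give these identifiers no names.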

How the data were processed

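Polyadenylated RNA of 15 Rat1a cultures was sequenced with a stranded dUTP kit, per the labels' protocols. The deposited values are raw counts per gene, 1 table per library. Per the submitters' processing notes, TopHat2 2.1.0 and Rnor_6.0 were used. How reads were assigned to genes, and with which strand setting, is not given in the sources used here. The 4 genes, the gene lists and the alternatives were chosen with earlier results of these data known.

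The test was that of edgeR 4.0.16 (R 4.3.3), with filterByExpr with a minimum of 10 counts, scaling by trimmed mean of M values (TMM) and 1 quasi-likelihood fit of all 15 libraries with the line as the only term. Each of 10 contrasts was adjusted by Benjamini-Hochberg over 13676 genes (99.98% of all counts) and called at an adjusted p below 0.05. Standard errors are the fold change divided by the root of F, and 95% intervals use the fit's degrees of freedom. A gene was too low to read where neither line had 10 counts in each library. Log2 CPM used a prior count of 2. For a run of the procedure on simulated data no result is given here, and no statement of this report rests on it. DESeq2 1.42.0, other scalings, filters, sample sets and a replicate block were alternatives. No replicate pair agreed within counting noise (chi-square over its degrees of freedom at least 4.24).

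The 4 genes are always named, and for each the most correlated gene, by identifier. Lists of related pathway genes and cell type markers were not run, because identifiers could not be paired with symbols. Deviations of equally numbered libraries correlated over 0.1 in every pair for the 6 contrasts among MYC lines (0.13 to 0.54), so those numbers were taken to pair the samples, and not for the 4 contrasts with EV.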

Additional observations from a re-analysis of the deposited data

How the results depend on the processing

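Of 44 results for the 4 genes (10 contrasts and a test over all lines for each), 18 kept their direction and side of the threshold in every alternative, and 887 of 960 recalculated values did. The only calls among the 18 are the Ccl2 falls in R149 and WT and the Ccl2 test over all lines. The others are uncalled results that stayed uncalled, some of them Il6 comparisons too low to read. Many alternatives left out a library of a line outside the contrast. Passes and losses named in the rest of this paragraph are changes from the reported fit, and calls that were kept are not listed. Without library scaling by composition the Vegfa log2 fold change of R149 against EV was 0.38, and with RLE size factors it was 0.43, neither past the threshold. Library size alone turned Vegfa in R158 against WT to -0.01. Without a filter on low counts Cxcl1 in R158 against EV (1.26) passed. DESeq2 passed Cxcl1 in R158 (1.25) and R323 (1.16) against EV, and Il6 over all lines (adjusted p 0.0399). With only the 2 lines compared in the fit, Cxcl1 in R158 (1.25) and R323 (1.15), Vegfa in R323 (0.37) and Il6 in R323 (-1.91) passed against EV. With replicates 2 and 3 only, Cxcl1 in R158 (1.22), Vegfa in R323 (0.33) and Il6 in WT (-2.07) passed against EV, and so did Il6 over all lines (adjusted p 0.0476), while Ccl2 in R323 against EV (-0.60) did not. In that setting Il6 in R149 against EV was -1.29, Il6 in R149 against WT turned to 0.78 and Vegfa in R149 against R323 to 0. The cause of these changes was not tested.

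With the replicate number as a block, the 5 reported calls against EV were kept. Among them, Vegfa in R149 was 0.43, with an edgeR adjusted p of 0.0034. Cxcl1 then also passed against EV in WT (0.89), R149 (0.66), R158 (1.27) and R323 (1.16). So did Vegfa in R158 (0.30) and R323 (0.37), and Il6 in WT (-2.02). Over all lines the blocked adjusted p was 0.00608 for Cxcl1 and 0.0271 for Vegfa. For contrasts with EV, not every pair of equal numbers correlated over 0.1, the cut-off used. The correlations were 0.099 to 0.21 for WT, 0.084 to 0.18 for R158, 0.017 to 0.071 for R149 and 0.0052 to 0.048 for R323. Of all 15 libraries, EV included, 12 correlated best on average with their own number in the other lines. By this cut-off the pairing with EV was not shown, and it was not excluded either. The block changed no call among the MYC lines.

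Leaving out 1 library at a time gave these ranges of log2 fold change against EV. Ccl2 ran from -0.69 to -0.27 in R158 and from -0.72 to -0.46 in R323. Cxcl1 ran from 0.94 to 1.56 in R158. Il6 ran from -3.15 to -1.73 in R149, from -1.89 to -0.22 in R158, from -2.25 to -1.13 in R323 and from -2.86 to -1.23 in WT. Vegfa ran from 0.26 to 0.53 in R149. Against WT, uncalled estimates changed sign. Cxcl1 ran from -0.64 to 0.08 in R149 and from -0.18 to 0.64 in R323. Il6 ran from -1.12 to 0.34 in R149 and from -0.32 to 0.93 in R323. Vegfa ran from -0.01 to 0.37 in R149, from -0.14 to 0.22 in R158 and from -0.05 to 0.31 in R323. Between mutants, Ccl2 in R158 against R323 ran from -0.10 to 0.32, Cxcl1 there from -0.22 to 0.50, and Vegfa in R149 from -0.02 to 0.23 against R158 and from -0.11 to 0.16 against R323.

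Over all the alternatives, the number of all genes called lay in the ranges that follow, with the reported count in brackets. Each upper end came from replicates 2 and 3 only, except that of R149 against EV, which came from the replicate block. The lower ends for R149 against WT and against R158 came from the fit of only the 2 lines compared, and the other lower ends from leaving out 1 library. Against EV it lay between 2399 and 5151 (3661) for WT and between 2108 and 5771 (3892) for R158. For R149 against EV it lay between 3872 and 6591 (5264), and for R323 against EV between 2913 and 5903 (4076). Against WT it lay between 54 and 1323 (162) for R149, 19 and 996 (82) for R158, and 61 and 924 (122) for R323. It lay between 42 and 627 (174) for R149 against R158, 55 and 547 (147) for R149 against R323, 31 and 1274 (128) for R158 against R323, and 2622 and 7037 (4383) over all lines. At least 10 Il6 counts were found in 7 of 15 libraries.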
